A study of Mus musculus with 6 samples.

Results

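The classical MHC class I presentation genes examined here are H2-K1, H2-D1, B2m, Tap1, Tap2, Tapbp, Psmb8, Psmb9, Psmb10 and Nlrc5, chosen by gene name as the class I heavy chains, their light chain, peptide transport and loading, the immunoproteasome subunits and the class I transactivator. All 10 were found in the deposited table, among 55487 gene IDs, and all 10 passed the filter on low counts. They were measured by bulk RNA sequencing in cells of the marginal zone (MZ) of the spleen, B cells that respond early to blood-borne antigen, enriched by negative selection and then flow sorted from 14-week-old mice. CD55KO mice, which lack the complement regulator CD55, gave 3 libraries, and wild-type (WT) C57BL/6 mice gave the other 3. The labels do not give the deleted part of Cd55, the strain background of the CD55KO mice or whether each library stands for a mouse of its own, so p-values measure only the spread between libraries, which may be technical. The comparison asks whether MZ B cells lacking CD55 differ from WT MZ B cells in the transcripts of the class I pathway.

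Class I molecules carry peptides from the cytosol to the cell surface, where CD8+ T cells read them. Proteasomes cut proteins into peptides, with the immunoproteasome subunits replacing their constitutive counterparts in immune cells and after interferon. The TAP transporter moves the peptides into the endoplasmic reticulum, tapasin holds TAP close to empty class I molecules, and heavy chains leave only with B2m and a peptide bound. NLRC5 is a transactivator of class I genes and is itself induced by interferon.

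Total counts ran from 24961343 to 29209647 in the CD55KO libraries and from 20056111 to 30784090 in the WT libraries. The lowest was that of WT replicate 1, which also lay far from the other 5 libraries on principal component 1, with 28.8% of the variance. CPM is the count of a gene relative to the total of its library after TMM scaling. Cd55 had 8.95, 6.23 and 7.42 CPM in CD55KO replicates 1 to 3, against 125, 119 and 109.99 CPM in WT replicates 1 to 3 (log2 fold change -3.96 ± 0.11). Every CD55KO library lay far below every WT library. The 6 B cell markers summed to between 13489.8 and 14677 CPM in CD55KO and between 13164 and 15315 CPM in WT, and the 6 MZ markers to between 3240.0 and 3431 CPM in CD55KO and between 3105 and 3325 CPM in WT. All 12 passed the filter on low counts and none was called by edgeR, DESeq2 or limma-voom.

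None of the 10 genes was called different between the genotypes. By edgeR's quasi-likelihood test with Benjamini-Hochberg adjustment over all 13794 tested genes, 0 of the 10 passed an adjusted p of 0.05, where 0.399% of all tested genes did. DESeq2 and limma-voom also called 0 of the 10, where they called 0.993% and 0.362% of all tested genes. All 10 log2 fold changes of CD55KO against WT were negative, between -0.25 and -0.04 with a median of -0.14. Of all tested genes 49.6% had a negative value, and their median was 0.0015. The 10 genes moved together over the 6 libraries (r = 0.665 to 0.983 with the mean of the other members). Their signs are therefore not 10 independent observations. Without WT replicate 3 the median of the 10 was -0.09 and 8 of the 10 were negative. An unadjusted p under 0.05, all with lower values in CD55KO, was found for 3 of the 10, Tap1, Psmb9 and Psmb10, where 8.6% of all tested genes had one in either direction and 4.3% in that one. The 95% intervals of the fold changes, not adjusted for the number of genes, ran from 75.2% of the WT level at the lowest, for Tap1, to 111% at the highest, for Tap2. In bulk samples fewer cells with a transcript and less of it per cell cannot be told apart.

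The promoters of the heavy chains and of B2m hold the letters of the elements known to drive class I genes, an NF-kB site upstream and the X2 and Y boxes nearer the start. They are shown because interferon, NF-kB and NLRC5 are known to act on class I genes through these elements, and no expression value given here was tested against them. The sequences are the 250 bases before the RefSeq start of each gene (GRCm38.p6), read in the direction of transcription, and the RefSeq start of H2-D1 lies inside the gene as GENCODE annotates it. Capitals mark, on either strand, the core of the interferon-stimulated response element (GAAA, any 2 bases, GAAA), the core of the NF-kB site (GGG, any 2 bases, TT, any base, CC), TGACG of the X2 box and CCAAT of the Y box.
H2-K1 (chr17:34000348-34000597, minus strand): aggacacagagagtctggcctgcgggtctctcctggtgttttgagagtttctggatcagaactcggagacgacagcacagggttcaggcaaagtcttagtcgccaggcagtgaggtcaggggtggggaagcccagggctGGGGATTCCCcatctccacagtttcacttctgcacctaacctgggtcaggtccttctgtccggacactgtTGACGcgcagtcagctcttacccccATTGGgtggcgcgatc
H2-D1 (chr17:35262844-35263093, plus strand): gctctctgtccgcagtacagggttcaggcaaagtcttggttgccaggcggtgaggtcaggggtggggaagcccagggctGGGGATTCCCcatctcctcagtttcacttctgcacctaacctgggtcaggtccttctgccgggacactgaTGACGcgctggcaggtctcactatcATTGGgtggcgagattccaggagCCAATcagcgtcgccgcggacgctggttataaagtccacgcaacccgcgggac
B2m (chr2:122147437-122147686, plus strand): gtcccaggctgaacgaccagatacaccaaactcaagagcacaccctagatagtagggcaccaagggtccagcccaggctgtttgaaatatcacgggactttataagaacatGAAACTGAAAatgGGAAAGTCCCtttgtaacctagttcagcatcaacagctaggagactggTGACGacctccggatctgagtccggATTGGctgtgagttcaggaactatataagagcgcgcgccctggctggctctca
Tap1 (chr17:34187306-34187555, plus strand): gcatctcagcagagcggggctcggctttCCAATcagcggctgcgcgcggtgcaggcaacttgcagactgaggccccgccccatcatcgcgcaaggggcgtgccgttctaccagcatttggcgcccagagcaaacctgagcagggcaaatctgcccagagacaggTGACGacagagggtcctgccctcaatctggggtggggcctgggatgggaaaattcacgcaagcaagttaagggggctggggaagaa
The last stretch also holds the RefSeq start of Psmb9, which is transcribed from the opposite strand and starts 226 bases from Tap1.

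RefSeq windows of 300 bases, 250 before and 50 after the start, were found for 8 of the 10 genes, all but Tap2 and Nlrc5, and the first was used for H2-K1, which has 2. The NF-kB core was in 3 of the 8 windows, those of H2-K1, H2-D1 and B2m, and in 4.79% of all 32851 promoter windows. TGACG was in 5 of the 8, those of H2-K1, H2-D1, B2m, Tap1 and Psmb9, and in 20.8% of all windows. CCAAT was in 6 of the 8, all but Psmb8 and Psmb10, and in 37.4% of all windows. The Tap1 and Psmb9 windows overlap. Their TGACG letters are the same bases read on opposite strands, as are their CCAAT letters, so each site is counted for both genes. The interferon-stimulated response element core was found in B2m alone among the 8 and in 3.44% of all windows. Only these exact letters were searched, so a window without them may still hold a variant of the element. The Psmb8 and Psmb10 windows held none of these letters. The letters of a STAT site (TTC, any 3 bases, GAA) were found in Psmb8 alone among the 8 and in 8.3% of all windows. In H2-K1, H2-D1 and B2m the first base of TGACG lay exactly 25 bases before that of ATTGG, the Y box read on the other strand. That spacing, noticed after the windows were read, was held by 31 of all windows (0.0944%), and by 1 of the 11 nonclassical class I genes with a window, H2-M3. The NF-kB letters lay 70 bases before TGACG in H2-K1 and in H2-D1 and 48 bases before it in B2m. These are matches of letters, with no measurement of binding.

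The class I genes differed widely in level in these cells. Per kilobase of annotated exon, B2m had the highest level, with 3363 ± 156 CPM per kb in CD55KO and 3564 ± 140.5 in WT (SD, n = 3). H2-D1 followed with 2623 ± 128 CPM per kb in CD55KO and 2862 ± 226 in WT, and H2-K1 with 923 ± 107 in CD55KO and 1044 ± 107 in WT. Tapbp, Psmb8, Psmb10, Tap2, Psmb9 and Tap1 came next in that order, from 182 ± 2.90 CPM per kb in CD55KO and 192 ± 18.8 in WT for Tapbp to 40.5 ± 2.24 in CD55KO and 48.0 ± 1.38 in WT for Tap1. Nlrc5 was lowest, with 2.8 ± 0.15 CPM per kb in CD55KO and 3.12 ± 0.059 in WT. No neighbours in this order overlapped over the 6 libraries. The length is the union of all annotated exons, which exceeds a mature transcript where several transcripts are annotated. A level per kb is then a low estimate, and the order of the genes depends on these lengths. They were 860 bases for B2m and 2579 bases for H2-D1. By CPM not divided by length, H2-D1 lay above B2m, with WT means of 7380 and 3065 CPM. Together the 10 genes took 1.39 to 1.48% of all counts in CD55KO libraries and 1.53 to 1.62% in WT libraries, as shares of totals before TMM scaling.

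**Figure D1:**
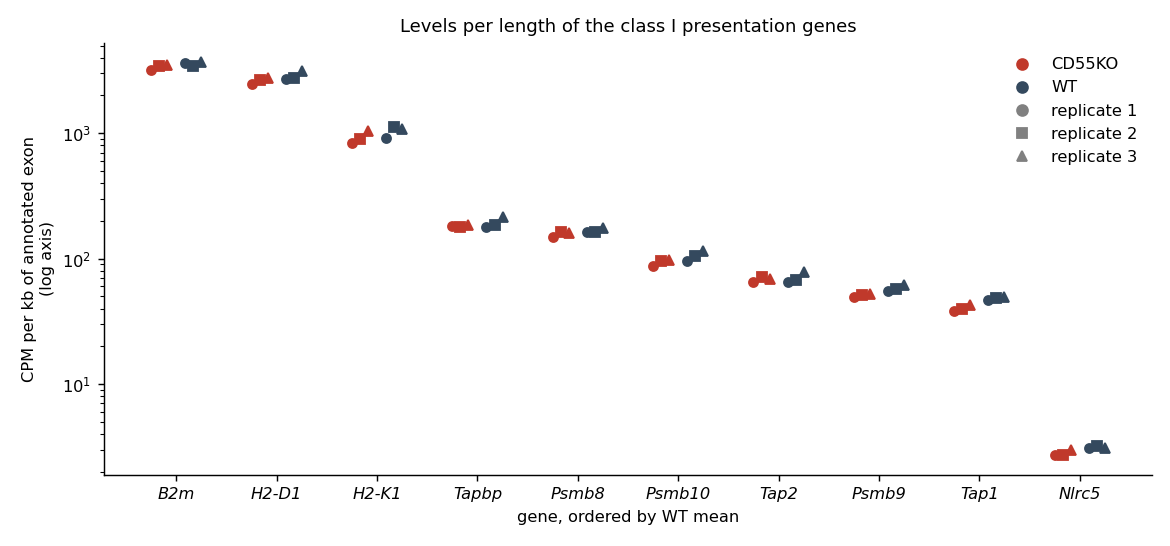
CPM per kb of annotated exon on a log axis for each gene, ordered by the WT mean, with CD55KO libraries in red left of WT libraries in blue and 1 point per library. On this scale, which depends on the annotated lengths, B2m is highest in every library, between 3184 and 3673 CPM per kb. Nlrc5 is lowest, between 2.71 and 3.19.

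The heavy chain genes had lower means in CD55KO, with overlapping libraries in TMM-scaled CPM. H2-K1 (ENSMUSG00000061232, chr17:33996017-34000347, minus strand, GRCm38), the K heavy chain, had 2441, 2638 and 3057 CPM in CD55KO replicates 1 to 3, against 2708, 3300.5 and 3191 CPM in WT replicates 1 to 3. CD55KO replicate 3 lay above WT replicate 1, so the groups overlapped. H2-K1 had a log2 fold change of -0.18 ± 0.10 (SE) and an adjusted p of 0.694 in edgeR's test, and the fold change was -0.11 without CD55KO replicate 1 and -0.27 without CD55KO replicate 3. H2-D1 (ENSMUSG00000073411, chr17:35262730-35267499, plus strand), the D heavy chain, had 6412, 6819 and 7063 CPM in CD55KO replicates 1 to 3, against 6952, 7145 and 8045 CPM in WT replicates 1 to 3. The highest CD55KO library again lay above the lowest WT library, and the log2 fold change was -0.13 ± 0.09 (edgeR adjusted p = 0.761), and -0.060 without WT replicate 3. The counts of both genes are not whole numbers and they have close relatives in the H2-Q and H2-T regions, so the division of reads among heavy chain genes is uncertain.

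B2m (ENSMUSG00000060802, chr2:122147686-122153083, plus strand), the light chain shared by all class I molecules, had overlapping libraries in TMM-scaled CPM. It had 2739, 2953 and 2985 CPM in CD55KO replicates 1 to 3, against 3107, 2929 and 3159 CPM in WT replicates 1 to 3. On that scale WT replicate 2 lay below CD55KO replicates 2 and 3, while as shares of the unscaled library totals the genotypes did not overlap. The log2 fold change was -0.08 ± 0.08, with a 95% interval of 83.3 to 107% of the WT level (edgeR adjusted p = 0.855), and was -0.045 without CD55KO replicate 1. Its counts are whole numbers in all 6 libraries.

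Among Tap1, Tap2 and Tapbp, Tap1 had the most negative fold change, and its partner Tap2 did not separate the genotypes. Tap1 (ENSMUSG00000037321, chr17:34187553-34197225, plus strand) encodes a subunit of the TAP transporter and had 211, 218 and 235 CPM in CD55KO replicates 1 to 3, against 254, 265 and 269 CPM in WT replicates 1 to 3. All CD55KO libraries lay below all WT libraries, a separation that 6.84% of tested genes showed in this direction and 14.1% in either. The mean was 222 ± 12.3 CPM over the CD55KO libraries and 263 ± 7.53 CPM over the WT libraries (SD, n = 3), and the log2 fold change of -0.25 ± 0.08 had an unadjusted p of 0.0064 and an adjusted p of 0.301 in edgeR's test, while DESeq2 gave an adjusted p of 0.079.

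Tap2 (ENSMUSG00000024339, chr17:34203527-34216321, plus strand), the other subunit of TAP, had 245, 271 and 262 CPM in CD55KO replicates 1 to 3, against 246, 257 and 296 CPM in WT replicates 1 to 3. The libraries intermingled, and the log2 fold change was -0.04 ± 0.09 (edgeR adjusted p = 0.958). Tapbp (ENSMUSG00000024308, chr17:33915899-33929292, plus strand), which encodes tapasin, had 666, 648 and 667 CPM in CD55KO replicates 1 to 3, against 645, 669 and 773 CPM in WT replicates 1 to 3. WT replicate 3 alone was high, and the other 5 libraries lay close together. Its log2 fold change was -0.08 ± 0.09 (edgeR adjusted p = 0.885), and it turned to 0.0060 without WT replicate 3 and was -0.13 without WT replicate 1. Tap2 turned to 0.045 without WT replicate 3 and to 0.0031 without CD55KO replicate 1, and ran from -0.091 to -0.048 without each of the other 4 libraries.

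The immunoproteasome subunits had lower means in CD55KO, and Psmb9 separated the genotypes. Psmb9 (ENSMUSG00000096727, chr17:34181987-34187764, minus strand), also called LMP2, replaces the constitutive subunit Psmb6 and had 182, 189 and 192 CPM in CD55KO replicates 1 to 3, against 201, 208 and 224 CPM in WT replicates 1 to 3. Every CD55KO library lay below every WT library. The log2 fold change was -0.17 ± 0.08, with an unadjusted p of 0.043 and an adjusted p of 0.564 in edgeR's test. Tap1 and Psmb9 share 212 bases of annotated exon on opposite strands, and reads there cannot be told apart because the libraries carry no strand information. Parts of Tap2, Psmb8, Tapbp and Nlrc5 also overlap exons of a gene on the opposite strand, over 78 bases in Nlrc5 to 904 bases in Tapbp, with the same limit. Tapbp shares a further 149 bases of annotated exon with Zbtb22 on its own strand.

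Psmb10 (ENSMUSG00000031897, chr8:105935735-105938444, minus strand), also called MECL-1, replaces Psmb7 and had 149.0, 162 and 165 CPM in CD55KO replicates 1 to 3, against 164, 179 and 196 CPM in WT replicates 1 to 3. CD55KO replicate 3 lay just above WT replicate 1, and the log2 fold change was -0.18 ± 0.08 (edgeR unadjusted p = 0.045, adjusted p = 0.569), and -0.11 without WT replicate 3. Psmb8 (ENSMUSG00000024338, chr17:34197721-34201454, plus strand), also called LMP7, replaces Psmb5 and had 502, 555 and 539 CPM in CD55KO replicates 1 to 3, against 556, 549 and 591 CPM in WT replicates 1 to 3. CD55KO replicate 2 lay within the WT range. Its log2 fold change was -0.09 ± 0.08 (edgeR adjusted p = 0.838), -0.047 without CD55KO replicate 1 and -0.055 without WT replicate 3.

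Nlrc5 (ENSMUSG00000074151, chr8:94434356-94527272, plus strand), the class I transactivator, was measured at much lower depth, with 569 to 719 counts in CD55KO and 541 to 848 counts in WT. It had 23.03, 23.02 and 25.2 CPM in CD55KO replicates 1 to 3, against 26.3, 27.1 and 26.1 CPM in WT replicates 1 to 3. The genotypes did not overlap. The log2 fold change was -0.16 ± 0.09 (edgeR adjusted p = 0.694). Among the 10 genes, 3 did not overlap between genotypes in TMM-scaled CPM, Tap1, Psmb9 and Nlrc5, all lower in CD55KO. On that scale 6.84% of all tested genes did not overlap in that direction and 14.1% in either. The overlap depends on the scaling. As shares of the unscaled library totals, H2-D1, B2m, Psmb8 and Psmb10 did not overlap either, and were also lower in CD55KO. The share of all tested genes without overlap was not computed for unscaled totals.

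**Figure D2:**
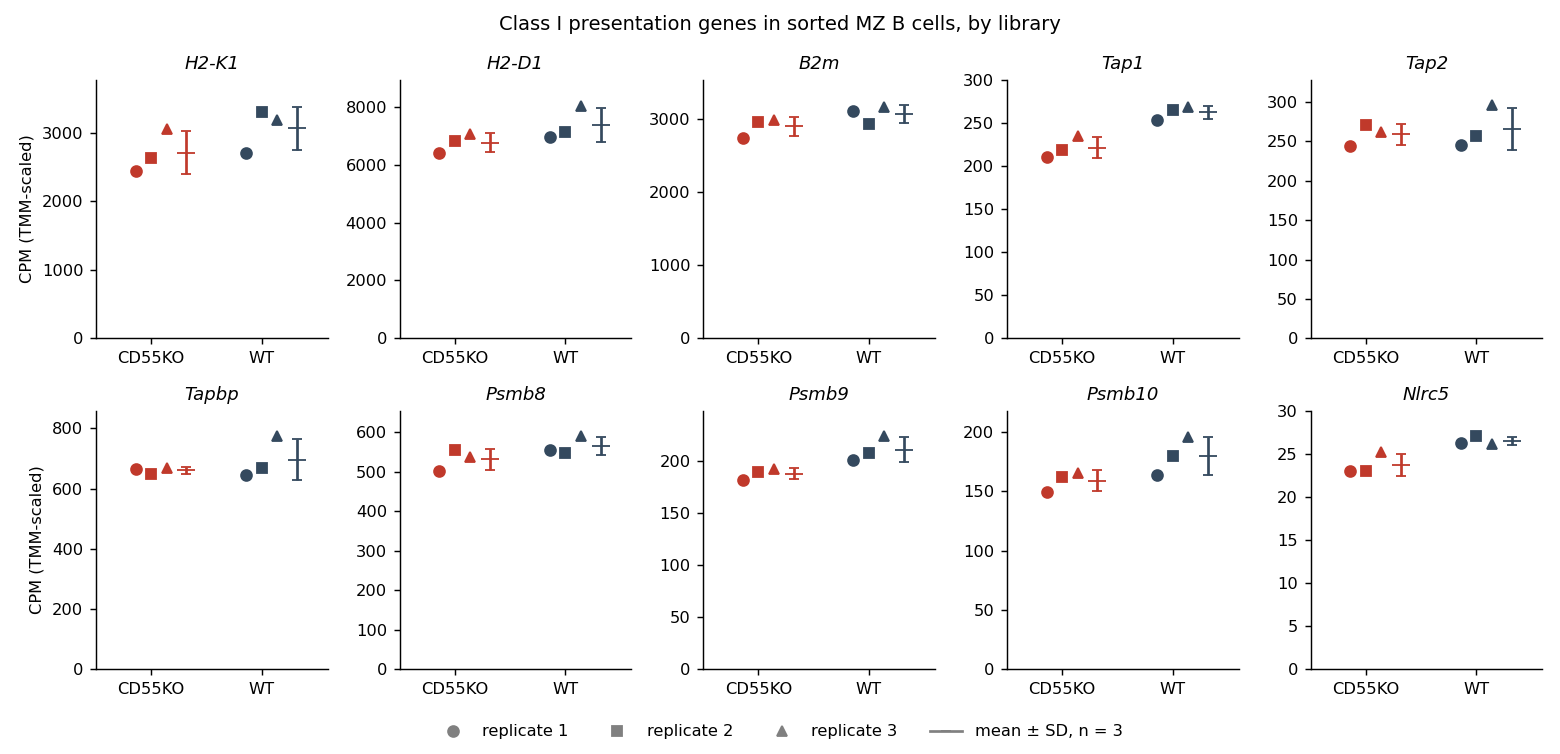
CPM of each gene on a linear axis from 0, with CD55KO left of WT, 1 symbol per replicate and the mean ± SD of 3 libraries beside the points. On this TMM-scaled measure Tap1, Psmb9 and Nlrc5 show no overlap between genotypes, as do 14.1% of all tested genes, and the other 7 genes do overlap.

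The 10 genes tended to be low in the same library and high in the same library. CD55KO replicate 1 was the lowest of the 6 libraries for 8 of the 10 genes, the exceptions being Tapbp, which was lowest in WT replicate 1, and Nlrc5, which was lowest in CD55KO replicate 2, nearly level with CD55KO replicate 1. WT replicate 3 was the highest for 8 of the 10, and WT replicate 2 for H2-K1 and Nlrc5. The mean over the genes of log2 CPM, centred for each gene, came to -0.14, -0.06 and -0.0061 for the CD55KO libraries 1 to 3, against -0.0071, 0.06 and 0.15 for the WT libraries 1 to 3. CD55KO replicate 3 and WT replicate 1 were level on this measure, CD55KO replicates 1 and 2 lay below them, and WT replicates 2 and 3 lay above. The correlation of each gene with the mean of the other 9 over the 6 libraries, given as a description, ran from r = 0.665 for Tap2 to 0.983 for Psmb10. All genes of a library share its depth and scaling.

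**Figure D3:**
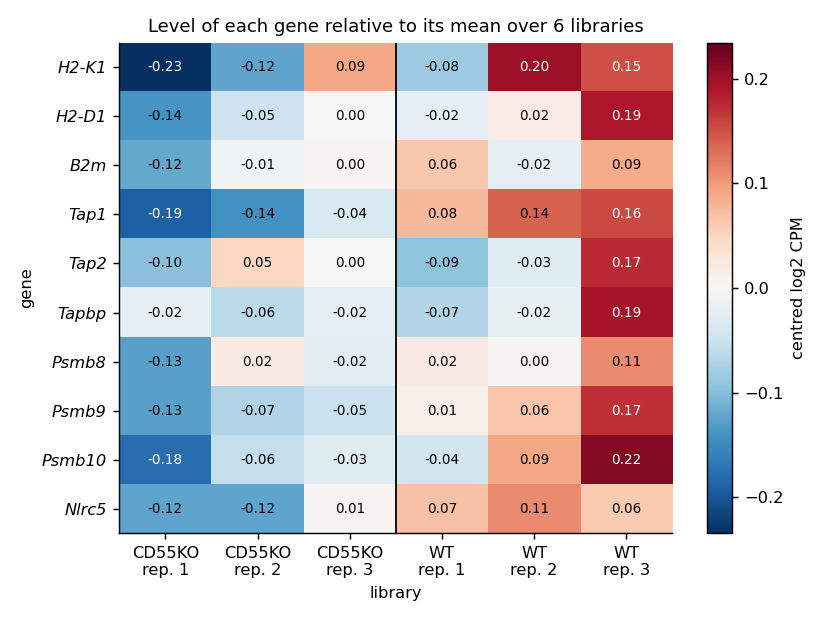
Log2 CPM of each gene minus its own mean over the 6 libraries, with genes as rows, CD55KO libraries left of WT libraries, red above and blue below that mean. CD55KO replicate 1 is below the mean for all 10 genes and WT replicate 3 above it for all 10.

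Genes outside the group with the same profile included a further gene of the pathway. Among 8524 other named genes with a mean of at least 5 CPM, Psme1, which encodes the alpha subunit of the PA28 proteasome activator, had the highest Pearson correlation with the mean profile of the 10 genes (r = 0.993, 6 libraries). Scamp3 (r = 0.991), Hacd2 (0.989), Rnaseh2c (0.988) and Srd5a3 (0.982) came next. A correlation above 0.9 was found for 92 of the 8524 genes (1.08%), and with 6 libraries such values are a description only.

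Ratios of counts within a library do not depend on the scaling between libraries, and 6 were compared by exact two-sided permutation tests, where 3 libraries against 3 cannot give a p below 0.1. The log2 ratio of Psmb9 to its constitutive counterpart Psmb6 was 0.26, 0.19 and 0.17 in CD55KO replicates 1 to 3, against 0.29, 0.38 and 0.30 in WT replicates 1 to 3. Every CD55KO library lay below every WT library, and the difference of the means was -0.12 (exact permutation p = 0.1, adjusted over the 6 ratios 0.3). The log2 ratio of Tap1 to Tap2 was -0.21, -0.31 and -0.16 in CD55KO replicates 1 to 3, against 0.05, 0.05 and -0.14 in WT replicates 1 to 3. Here too the genotypes did not overlap, though CD55KO replicate 3 and WT replicate 3 nearly met, and the difference was -0.21 (exact permutation p = 0.1, adjusted 0.3).

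The other 4 ratios overlapped between genotypes. Psmb10 to Psmb7 differed by -0.22 on the log2 scale (exact permutation p = 0.2, adjusted 0.4) and Psmb8 to Psmb5 by 0.03 (exact permutation p = 0.9). The log2 ratio of Psmb8 to Psmb5 was 2.09 ± 0.13 in CD55KO and 2.06 ± 0.05 in WT (SD, n = 3), and its difference turned to -0.05 without CD55KO replicate 1 and to -0.00066 without WT replicate 3. H2-K1 to H2-D1 was -1.32 ± 0.10 in CD55KO and -1.27 ± 0.14 in WT, a difference of -0.05 (exact permutation p = 0.5) that turned to 0.02 without WT replicate 2. The ratio of B2m to the sum of both heavy chains was -1.71 ± 0.04 in CD55KO and -1.77 ± 0.11 in WT, a difference of 0.06 (exact permutation p = 0.4).

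**Figure D4:**
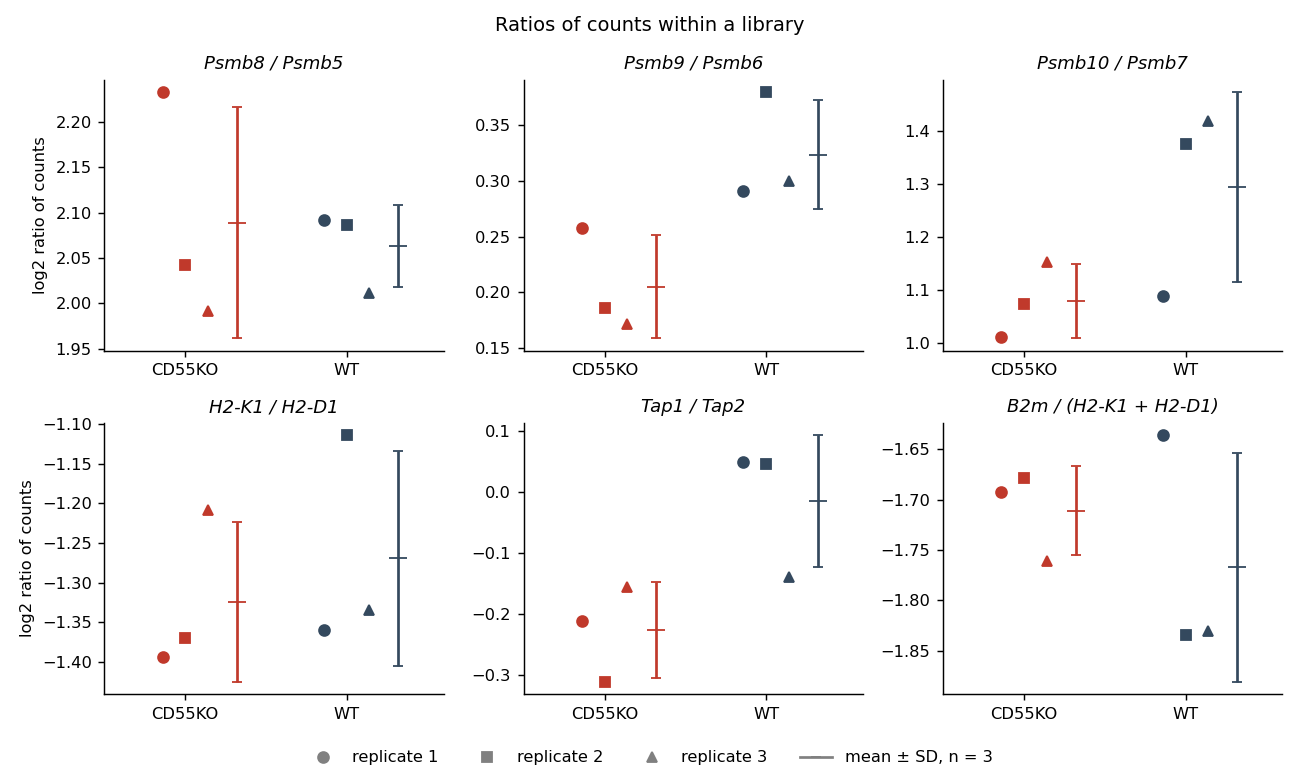
Log2 ratio of the counts of the named genes within each library, with CD55KO left of WT, 1 symbol per replicate and the mean ± SD of 3 libraries. Psmb9 to Psmb6 and Tap1 to Tap2 show no overlap between genotypes, and the axes of the panels differ.

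Of the 21 regulators of class I genes described here, 15 had a negative and 6 a positive log2 fold change of CD55KO against WT, with a median of -0.05, beside 0.0015 for all tested genes. The genotypes did not overlap for 4 that were lower in CD55KO, Irf1, Irf9, Nfya and Nfyb, and for 3 that were higher, Nfyc, Jak2 and Ifnar2, where 14.1% of all tested genes did not overlap. The genes named were chosen after values were seen. Irf1 encodes an interferon-induced transcription factor that acts on class I promoters and had 157, 159 and 175 CPM in CD55KO replicates 1 to 3, against 182, 207 and 183 CPM in WT replicates 1 to 3. Every CD55KO library lay below every WT library, and the log2 fold change was -0.22 ± 0.08 (edgeR unadjusted p = 0.014, adjusted p = 0.399). Nfya encodes a subunit of the Y box factor NF-Y and had 16.4, 17.8 and 18.4 CPM in CD55KO replicates 1 to 3, against 19.1, 21.2 and 20.7 CPM in WT replicates 1 to 3. It too did not overlap between genotypes, with a log2 fold change of -0.21 ± 0.11 (edgeR adjusted p = 0.602). Nfyc, which encodes another subunit of NF-Y, had 67.5, 68.8 and 67.5 CPM in CD55KO replicates 1 to 3, against 66.4, 62.8 and 65.3 CPM in WT replicates 1 to 3. It lay the other way, with a log2 fold change of 0.07 ± 0.07 (edgeR adjusted p = 0.860). Jak2, a kinase of the interferon gamma receptor, had a log2 fold change of 0.25 ± 0.13 (edgeR adjusted p = 0.661), and Ifnar2, a subunit of the type I interferon receptor, one of 0.13 ± 0.08 (edgeR adjusted p = 0.731).

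Of 6 tested peptide loading and trimming genes 2 fell, where 0.261% of all tested genes fell. They were Pdia3 and Calr, which encode the ERp57 oxidoreductase and the calreticulin chaperone of the peptide-loading complex and serve other glycoproteins too. Pdia3 had 616, 604 and 646 CPM in CD55KO replicates 1 to 3, against 867, 794 and 877 CPM in WT replicates 1 to 3. Calr had 262, 264 and 313 CPM in CD55KO replicates 1 to 3, against 386, 367 and 409 CPM in WT replicates 1 to 3. Neither overlapped between genotypes, with log2 fold changes of -0.44 ± 0.08 for Pdia3 (edgeR adjusted p = 0.025) and -0.47 ± 0.09 for Calr (0.026). Both passed under each of the 8 alternatives that kept all 6 libraries, with an adjusted p of 4.6e-07 for Pdia3 and 2.4e-05 for Calr by DESeq2. With 1 library left out the log2 fold changes ran from -0.49 to -0.42 for Pdia3 and from -0.56 to -0.42 for Calr. Pdia3 passed only without CD55KO replicate 1 among the 6 fits that left out 1 library, and had an adjusted p of 0.193 without CD55KO replicate 2, 0.063 without CD55KO replicate 3, 0.089 without WT replicate 1, 0.057 without WT replicate 2 and 0.111 without WT replicate 3. Calr passed only without CD55KO replicate 3, and had 0.064 and 0.211 without CD55KO replicates 1 and 2 and 0.072, 0.063 and 0.142 without WT replicates 1 to 3.

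Of 7 tested genes for constitutive catalytic subunits, proteasome activators and assembly none passed by edgeR, DESeq2 or limma-voom, and 1, Psme2, had an unadjusted p under 0.05 by edgeR, where 8.6% of all tested genes did. The smallest p-values were those of the PA28 genes, Psme2 at 187 ± 15.1 CPM over the CD55KO libraries and 212 ± 16.0 CPM over the WT libraries (edgeR adjusted p = 0.581), and Psme1 at 313 ± 17.7 CPM over the CD55KO libraries and 351 ± 23.3 CPM over the WT libraries (0.631). Their log2 fold changes, -0.18 ± 0.09 and -0.16 ± 0.09, were of the size seen for Psmb9 and Psmb10. The constitutive Psmb7, the counterpart of Psmb10, averaged 75.1 ± 1.71 CPM over the CD55KO libraries and 73.1 ± 3.94 CPM over the WT libraries. Of 12 tested nonclassical class I genes 1 passed, where 0.399% of all tested genes did. It was H2-Q7, with 201, 220.5 and 256 CPM in CD55KO replicates 1 to 3, against 387, 424 and 433 CPM in WT replicates 1 to 3 (log2 fold change -0.88 ± 0.10, edgeR adjusted p = 9.9e-05). Its counts are not whole and its reads may be shared with H2-Q6 and other relatives. H2-T3, H2-M2, H2-Q2 and the regulator gene Socs1 had at most 12 counts in a library and were not tested.

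**Figure D5:**
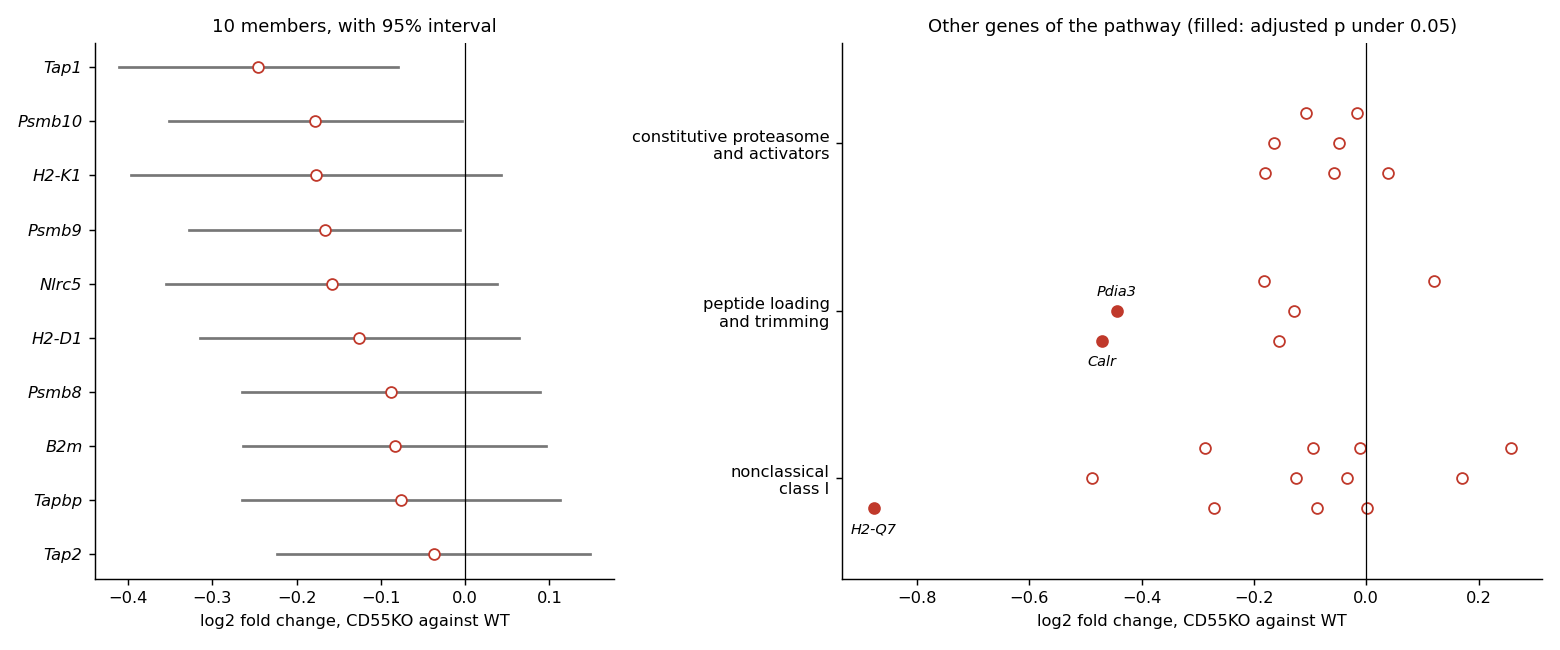
Log2 fold change of CD55KO against WT for the 10 genes with their unadjusted 95% intervals (left) and for 3 other gene lists of the pathway, 1 point per tested gene (right), filled where the adjusted p is under 0.05. All 10 genes lie left of 0, and the filled points are Pdia3, Calr and H2-Q7.

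All nucleated cells express class I genes, so markers of other cells were read beside these values. The 9 macrophage markers summed to between 21.6 and 24.6 CPM in CD55KO and between 14.0 and 19.2 CPM in WT, so the genotypes did not overlap, with Vsig4 at 0 in every library, 5 of the 9 below 1 CPM in every library and none called by edgeR, DESeq2 or limma-voom. The 8 plasma cell markers summed to between 932 and 1058 CPM in CD55KO and between 971 and 1133 CPM in WT. They were Jchain, Sdc1, Prdm1, Tnfrsf17, Txndc5, Mzb1, Derl3 and Slamf7. Some, such as Mzb1, are not limited to plasma cells, so their sum does not measure plasma cell content. The 6 dendritic cell markers summed to at most 5.95 CPM in CD55KO and 7.58 CPM in WT. The 7 T cell markers summed to between 41.3 and 48.6 CPM in CD55KO and between 39.3 and 43.9 CPM in WT, with 6 of them below 1 CPM in every library. The 5 NK cell markers summed to between 29.8 and 33.5 CPM in CD55KO and between 26.9 and 35.3 CPM in WT, with 4 of them below 1 CPM in every library, as were all 5 neutrophil markers. The 6 erythroid markers summed to 1989, 1590 and 35.8 CPM in CD55KO replicates 1 to 3, against 4351, 356 and 105 CPM in WT replicates 1 to 3. Within each genotype, a library with a higher erythroid sum had a lower mean centred level of the class I genes. Across genotypes that order did not hold, as WT replicate 1 had the highest sum and CD55KO replicate 1 the lowest class I mean. WT replicate 3, which was highest for 8 of the 10 genes, also had the highest sum of B cell markers (15315 CPM). The part of these differences in the class I values was not tested.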

How the data were processed

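Bulk RNA sequencing of 6 MZ B cell libraries was deposited by the authors as unscaled estimated counts of each gene. DRAGEN, edgeR and limma are named per the submitters' processing notes, with no version. Build and gene models of the counts were not given in the sources used here. Per the labels' protocols, the RNeasy micro kit gave the RNA and SMARTer Ultra Low RNA, a kit without strand information, the libraries. Repeated rows (287 of 55774) held identical values and were removed, and counts were rounded. Libraries of a genotype differed by 14.2 to 36.1 in chi-square per degree of freedom, so none was a duplicate.

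The test of genotype was run in R 4.3.3 with edgeR 4.0.16 (filterByExpr with minimum count 10 and minimum total 15, TMM, robust quasi-likelihood F-test, genotype alone, Benjamini-Hochberg adjustment over 13794 genes). Standard errors were taken from the fold change and its F statistic. The fit was tested on simulated data. Ratios used counts as deposited. Positions and exon lengths came from GENCODE M21 (GRCm38) by gene ID (99.4% found), and promoters from RefSeq (GRCm38.p6).

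The members and lists were chosen with earlier results of these data known. All 10 members are named; from each other list, the genes that were called, or in a list with no call the 2 genes of smallest p; and the 5 genes closest in profile. A further tested gene of the regulator list is not reported here, so the tally of that list covers 21 genes. Alternatives were DESeq2 1.42.0 (size factors, Wald test), limma-voom (limma 3.58.1), library totals, other filters (none, or 50 counts in 3 libraries), immunoglobulin segments left out, a replicate block and leaving out each library.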

Additional observations from a re-analysis of the deposited data

How the results depend on the processing

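No member was called under any of the 14 alternatives, and the lowest adjusted p any of them gave a member was 0.079, for Tap1 by DESeq2. The direction of 137 of 140 member values was kept. The exceptions were Tap2 (0.0031 without CD55KO replicate 1, 0.045 without WT replicate 3) and Tapbp (0.0060 without WT replicate 3), whose log2 fold changes with 1 library left out ran from -0.091 to 0.045 for Tap2 and from -0.13 to 0.0060 for Tapbp. The median log2 fold change of the members ran from -0.17 to -0.09 over the fits that left out 1 library, with -0.09 reached without WT replicate 3. Genes called higher in CD55KO numbered 19, against 104 with no filter on low counts, 61 with DESeq2 and 12 to 20 with 1 library left out, where 12 was without WT replicate 3. Genes called lower in CD55KO numbered 36, against 128 with no filter, 76 with DESeq2 and 24 to 35 with 1 library left out, where 24 was without CD55KO replicate 2. The cause was not tested.

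With 1 library left out, the difference in log2 ratio ran from -0.047 to 0.074 for Psmb8 to Psmb5 and from -0.11 to 0.023 for H2-K1 to H2-D1. The other 4 ratios kept their sign. The deviations of log2 CPM from the mean of the genotype were correlated over genes between CD55KO and WT libraries. Same-numbered libraries gave 0.075, -0.12 and 0.17. The deviations of CD55KO replicate 2 correlated best with those of WT replicate 1, at 0.17, so the numbers were not taken as pairs. With the replicate number as a block 64 genes were called, against 55 without it, and the members' median was -0.14. Exact sign-flip tests of the ratios within numbers cannot give a p below 0.25. The widest 95% interval of a member, that of H2-K1, ran from 76.0 to 103% of the WT level.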
